A study of Homo sapiens with 4 samples.

Results

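Nuclear receptors, the family of transcription factors that bind hormones, lipids and other small molecules, were followed in a count table of human endometrial cancer cells. The members were the 45 rows of the table whose symbol is one of a fixed list of human nuclear receptor genes, out of 26364 gene symbols. RXRB was not on the list because it had no counts. Apart from RXRB, the rule goes by gene symbol and sets no threshold on a measured value. RXRG and NR0B1, which also had no counts, were kept. The list was drawn up with earlier results of these data known.

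Most nuclear receptors share a zinc finger DNA-binding domain and a ligand-binding domain. Steroid receptors such as ESR1 bind DNA mostly as homodimers after hormone binding, whereas the retinoic acid, thyroid hormone, vitamin D, PPAR and LXR receptors pair with a retinoid X receptor. In the endometrium, estrogen acting through ESR1 drives epithelial growth and raises the progesterone receptor PGR, and progesterone opposes that growth. The Y537S substitution lies in the ligand-binding domain of ESR1. It is known as an activating change found in hormone-resistant breast tumours and also in endometrial tumours.

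Ishikawa, an established line from an endometrioid adenocarcinoma, was the host of all samples, and all 4 samples were labelled as ESR1 mutants carrying ER-Y537S. Cells of 2 clones spent at least 5 days in hormone-deprived medium before an 8 h exposure to vehicle (0.1% DMSO) or to estradiol (E2) at 10 nM. Each group thus held 2 samples, 1 of each clone, and poly(A) libraries were made from 500 ng of RNA with a stranded kit. The study used these cells to learn how the mutant receptor acts on gene expression. The columns carry the tags A4 and B212, which the labels do not tie to clone 1 or clone 2, so the clones are called A4 and B212 here. Each is a single clone. No label says that the libraries came from separate cultures, so p-values refer to the spread between these 4 libraries. With 1 library per clone and treatment, that spread is estimated largely from all genes together and not from each gene alone. A difference between A4 and B212 is a difference between 2 clones. No sample without the mutation was analysed here. Whether the mutation is present cannot be read from gene counts.

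Libraries held 71575816 to 85222856 counts. Of 9 endometrial epithelial markers all 9 passed the filter on low counts, with a summed level of 2640 to 3630 CPM (counts scaled to a common effective library size). Of 6 stromal markers 3 passed, and their list summed to 35.1 to 129.9 CPM, almost all of it COL1A1. The endothelial list summed to 2.11 to 4.50 CPM, with PECAM1 at 0, and the immune list to 0.382 to 0.524 CPM, with CD3E at 0. Of 3 breast epithelial markers only TRPS1 passed, and ANKRD30A was at 0.

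PGR and RARG are the receptors with the largest rise and the largest fall with E2 among those that passed the test within clones, as described further on, so the DNA just before their starts is shown here. Both stretches hold the 250 bases before the most upstream RefSeq start in GRCh38.p14, on the minus strand, 5′ to 3′. PGR has 3 listed starts and RARG has 1. The PGR stretch is chr11:101129814-101130063 and the RARG stretch is chr12:53232210-53232459. Capitals mark the GC box, GGGCGG on either strand, the element bound by Sp1-type factors.
PGR: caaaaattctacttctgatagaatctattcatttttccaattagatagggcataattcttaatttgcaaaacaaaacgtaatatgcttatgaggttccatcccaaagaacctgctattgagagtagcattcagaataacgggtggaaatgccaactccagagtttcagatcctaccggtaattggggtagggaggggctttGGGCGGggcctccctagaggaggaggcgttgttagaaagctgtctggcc
RARG: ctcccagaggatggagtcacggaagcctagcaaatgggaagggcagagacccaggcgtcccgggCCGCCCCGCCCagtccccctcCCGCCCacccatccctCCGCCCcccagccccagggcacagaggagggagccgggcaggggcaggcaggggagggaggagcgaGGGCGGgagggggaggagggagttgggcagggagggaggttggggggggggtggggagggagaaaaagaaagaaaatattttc
The PGR stretch holds 1 GC box and 43.6% G or C, and the RARG stretch holds 5 GC boxes and 69.6% G or C. The windows of the other PGR starts, at 101129063 and 101129077, hold 63.6% and 64.4% G or C, with 2 GC boxes and a half-site GGTCA each, so the PGR stretch shown differs from RARG more than they do. Neither stretch shown holds the estrogen response element GGTCANNNTGACC. Among the 40 of 45 receptors with a RefSeq entry, 0 of 94 start windows of 250 bases held that element, against 14 of 35116 windows of all genes, or 0.0399%. Its half-site GGTCA, which is part of the full element, was in 32 of the 94 receptor windows (34.0%) and in 32.6% of all windows. The GC box was in 46 receptor windows (48.9%) and in 42.6% of all windows. The AP-1 motif TGACTCA was in 4.26% of receptor windows and 4.20% of all, the E-box CACGTG in 6.38% and 6.34%, and the TATA motif TATAAA in 8.51% and 10.7%. Receptor windows therefore held these motifs about as often as other windows did. Both strands were searched, and a match is a match of letters only.

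Windows of tested receptors had a median G and C content of 60.6% over 72 windows of 30 genes, and those of receptors under the filter 57.2% over 22 windows of 10 genes. The median over all windows was 58.0%. CpG dinucleotides numbered 12.5 per window in tested receptors, 7.5 in those under the filter and 11.0 in all genes, as medians. Windows of 1 gene can overlap, and no test was made.

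Of the 45 receptors, 34 had enough counts to be tested (a filter that asks for about 10 counts in at least 2 libraries), 9 had a few counts and 2 had none. A receptor that passed only because 1 clone expressed it had to differ between the clones, so the counts of changed receptors below cover the tested ones and not all 45. Asking for 10 counts in every library would keep 32 receptors, dropping NR2E1 and PPARG, and asking for 1 CPM in every library would keep 26.

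The receptors under the filter included many that are known from other tissues. RXRG, the retinoid X receptor of muscle and brain, and NR0B1, the adrenal and gonadal receptor without a DNA-binding domain, had 0 counts in all 4 libraries, which allows at most 0.0351 to 0.0410 CPM (3 counts, counting error only). ESRRB, an estrogen-related receptor of stem cells, had 2 counts in each library. ESRRG, its relative in muscle and heart, had 5, 0, 1 and 0 counts in A4 DMSO, A4 E2, B212 DMSO and B212 E2, the order used for all values below. HNF4A, the liver and gut receptor, had 9, 5, 4 and 4 counts, and NR5A1, the steroidogenic factor of adrenal and gonad, had 1, 0, 2 and 6. NR1H4, the bile acid receptor FXR, had 2, 4, 5 and 6 counts, and NR1I2, the xenobiotic receptor PXR, had 1, 1, 2 and 1. NR0B2, the corepressor SHP, had 9, 0, 0 and 2 counts, and NR2E3, a photoreceptor factor, had 6, 2, 7 and 8. NR2F2, or COUP-TFII, a regulator of endometrial stroma, had 7, 4, 26 and 7 counts. None of these 9 summed to more than 44 counts, while the tested receptor with the fewest had 63.

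RXRB, although left off the list, bears on what an absent receptor means in this table. It had 0 counts in all 4 libraries, and so did 4 of its 10 nearest coding genes in RefSeq order, namely HLA-DOA, HLA-DPA1, HSD17B8 and RING1. VPS52 and RPS18, in the same stretch, had at most 1 count in any library, and RPS18 encodes a ribosomal protein that every cell makes. RXRB is therefore described only as listed at 0. Of the 10 nearest genes of RXRG 1 was at 0, and of those of NR0B1 4 were.

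**Figure D1:**
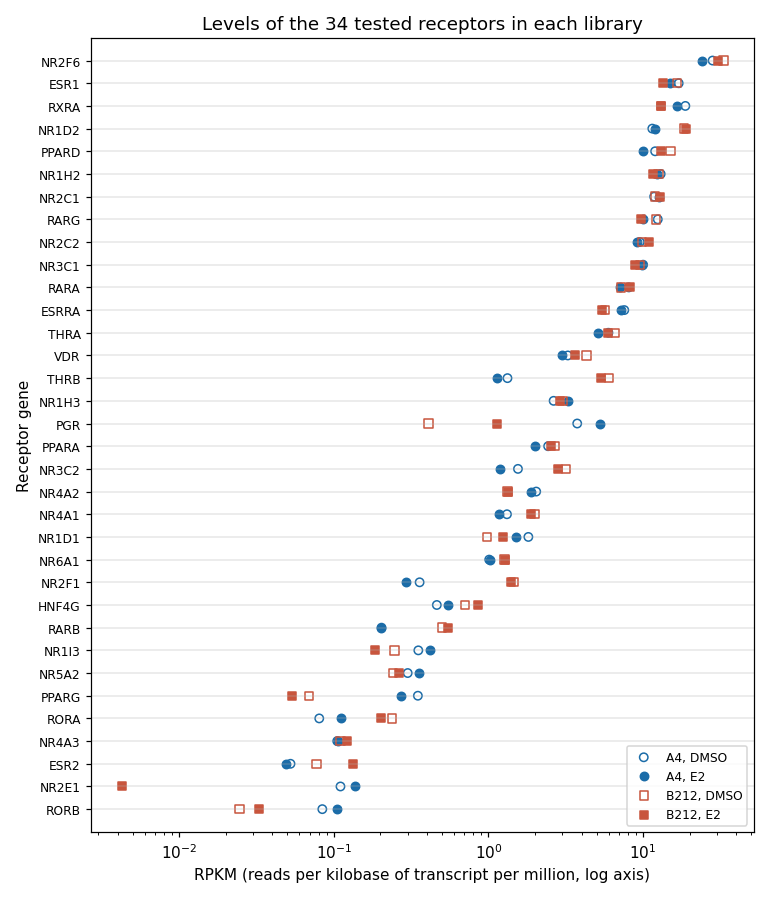
Level of each tested receptor in the 4 libraries, in RPKM (CPM per kilobase of the longest coding transcript, log axis), ordered by mean. Levels run from 29.0 for NR2F6 down to 0.0616 for RORB, and the B212 DMSO library of NR2E1, at 0, is not drawn.

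Per transcript length, the highest mean level was that of NR2F6, an orphan receptor that acts mostly as a repressor, at 29.0 ± 3.77 RPKM (SD over the 4 libraries, here and below). ESR1 (15.5 ± 1.65), RXRA (15.4 ± 2.82) and NR1D2 (15.2 ± 4.04 RPKM) followed within each other's spread. PPARD, NR1H2, NR2C1, RARG, NR2C2 and NR3C1 lay between 12.5 and 9.59 RPKM, and RARA, ESRRA and THRA between 7.66 and 5.89 RPKM. VDR, THRB, NR1H3, PGR, PPARA and NR3C2 had means of 3.56 to 2.19 RPKM, and those of PGR and THRB were set mostly by 1 clone. NR4A2, NR4A1, NR1D1 and NR6A1 ended the group of 23 receptors with a mean of at least 1 RPKM. The 11 tested receptors under 1 RPKM were NR2F1, HNF4G, RARB, NR1I3, NR5A2, PPARG, RORA, NR4A3, ESR2, NR2E1 and RORB.

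The order depends on which transcript gives the length. With the median length over a gene's coding transcripts, ESR1 reached 73.2, NR2C2 63.2, NR2F6 44.4, NR2C1 30.1, RXRA 24.0, PPARA 22.6, NR3C1 21.5 and PGR 13.6 RPKM, so that NR2F6 no longer stood first. Comparisons of 1 receptor between libraries do not depend on this choice.

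The 5 steroid receptors all passed the filter. ESR1, the receptor for estradiol that carries the mutation, stood at 17.0, 15.0, 16.6 and 13.4 RPKM. ESR2, the second estrogen receptor, stood at 0.0525, 0.0491, 0.0773 and 0.132 RPKM, or 21 to 53 counts a library. The ESR1 level exceeded the ESR2 level 324, 305, 215 and 101 times in the 4 libraries, or 180 to 577 times with median transcript lengths. NR3C1, the glucocorticoid receptor, stood at 10.0, 9.86, 9.57 and 8.91 RPKM, and varied less between libraries than any other steroid receptor. NR3C2, the mineralocorticoid receptor, stood at 1.55, 1.19, 3.17 and 2.84 RPKM, higher in both B212 libraries. The ratio of NR3C1 to NR3C2 was 6.44 and 8.26 in A4 and 3.02 and 3.14 in B212, and ran from 6.55 to 17.9 over the 4 libraries with median transcript lengths. PGR stood at 3.75, 5.24, 0.409 and 1.14 RPKM, higher in both A4 libraries than in either B212 library.

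The retinoid, thyroid hormone and vitamin D receptors numbered 8 members, of which 7 passed the filter. Of the retinoic acid receptors, RARG was the most abundant at 9.70 to 12.4 RPKM, RARA followed at 7.08 to 8.25 RPKM, and RARB lay at 0.202 to 0.549 RPKM. RXRA, the shared dimer partner, was the only retinoid X receptor with counts, at 18.8, 16.6, 13.1 and 13.0 RPKM. RXRB is listed at 0 beside genes such as RPS18 that are also at or near 0, so whether it is expressed cannot be read here. THRA, the broadly expressed thyroid hormone receptor, stood at 5.97, 5.09, 6.59 and 5.91 RPKM and THRB at 1.33, 1.14, 6.02 and 5.37 RPKM. In A4 THRA was 4.49 and 4.45 times THRB, and in B212 the ratio was 1.10 in both libraries. With median transcript lengths the ratio ran from 0.830 to 3.41, so that THRB exceeded THRA in B212 and the order there is not settled. VDR, the vitamin D receptor, stood at 3.26, 3.01, 4.30 and 3.65 RPKM.

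Among the lipid sensors, PPARD was the main peroxisome proliferator-activated receptor by the longest transcript, at 10.0 to 15.1 RPKM, or 4.92 to 5.64 times PPARA. With median transcript lengths that ratio was 0.562 to 0.645, so the order of PPARD and PPARA is not settled by these counts. PPARG, the adipocyte receptor, stood at 0.350, 0.270, 0.0693 and 0.0538 RPKM. NR1H2 and NR1H3, the liver X receptors that sense oxysterols, stood at 11.5 to 13.0 and 2.64 to 3.29 RPKM, a ratio of 3.74 to 4.92, or of 1.99 to 2.62 with median transcript lengths. NR1H3, with 528 to 737 counts a library, overlaps ACP2 on the other strand, which had 2557 to 4108. The strand setting of the counting is not given, so the NR1H3 level and the ratio are uncertain. HNF4G, a relative of HNF4A, stood at 0.464 to 0.859 RPKM and NR1I3, the constitutive androstane receptor, at 0.185 to 0.422 RPKM.

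Among the clock receptors, NR1D2 (REV-ERB beta) exceeded NR1D1 (REV-ERB alpha) 6.33, 7.91, 18.8 and 15.1 times, and RORA and RORB stood at 0.0806 to 0.239 and 0.0245 to 0.105 RPKM. Of the other orphan receptors, the testicular receptors NR2C1 and NR2C2 stood at 11.8 to 12.8 and 9.13 to 11.0 RPKM. NR2F1, or COUP-TFI, stood at 0.359, 0.292, 1.46 and 1.39 RPKM. ESRRA, which drives mitochondrial genes, stood at 5.40 to 7.56 RPKM. The immediate early receptors NR4A1 and NR4A2 stood at 1.18 to 1.99 and 1.33 to 2.04 RPKM, and NR4A3 at 0.105 to 0.122 RPKM. NR5A2, a receptor of liver and pancreas, stood at 0.242 to 0.357 RPKM and NR6A1, the germ cell nuclear factor, at 1.01 to 1.28 RPKM.

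**Figure D2:**
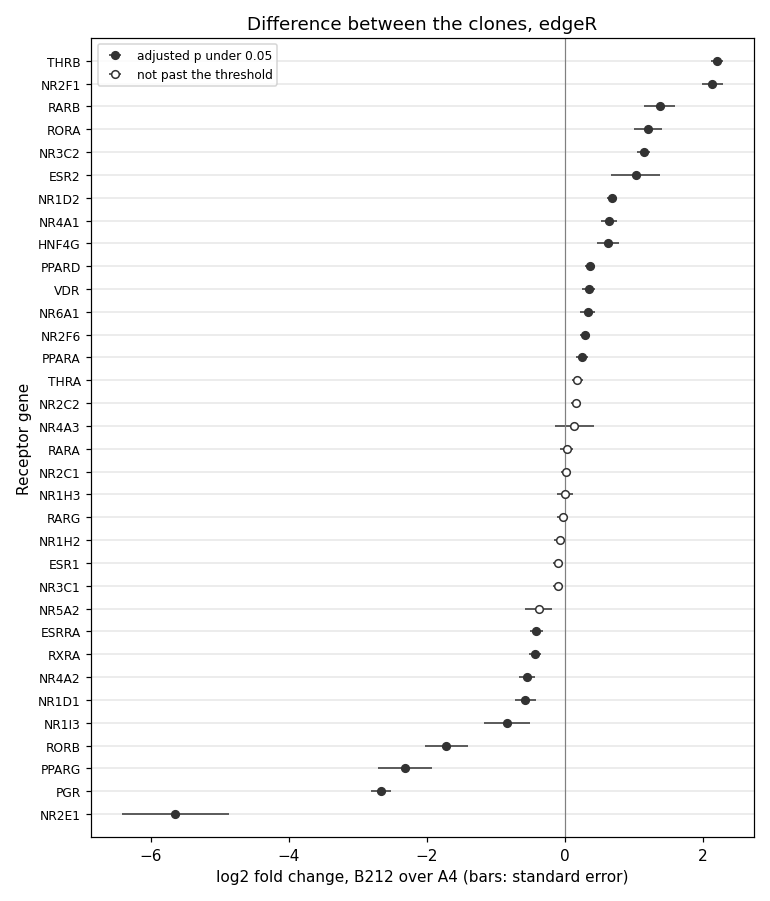
Log2 fold change of B212 against A4 for each of the 34 tested receptors, from edgeR with treatment as a covariate. Bars are a standard error derived from the F statistic of the test, and filled points passed an adjusted p of 0.05. Changes run from 2.21 for THRB to -5.64 for NR2E1, whose fitted value rests on 0 and 1 counts in B212.

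The clones differed in 23 of the 34 tested receptors (67.6%), with 14 higher and 9 lower in B212. THRB, NR2F1, RARB, RORA, NR3C2 and ESR2 were at least 2-fold higher in B212, and PGR, PPARG, RORB and NR2E1 at least 2-fold lower. ESR1 and NR3C1 did not pass the test. Over all 15599 tested genes, 51.0% passed in this comparison, 25.2% higher and 25.8% lower, and 11.0% passed with a change of at least 1 on the log2 scale. The 10 receptors past that size were 29.4% of the tested ones. They include NR2E1, which passed the filter through A4 alone, so its difference was built in. PPARG, with 12 and 8 counts in B212, also needed its A4 libraries to pass. Genes of this kind were not taken out of the shares over all genes either. The median absolute log2 fold change was 0.43 in the receptors and 0.28 in all tested genes, and the signed medians were 0.08 and 0.0042. Tests were edgeR's quasi-likelihood test with Benjamini-Hochberg adjustment over all tested genes, threshold 0.05, on 2 libraries of each clone. The SE given with an edgeR fold change was derived from the F statistic of that test, so it is not a separate measure of spread.

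THRB had 9.83, 8.46, 44.5 and 39.8 CPM. Both B212 libraries stood far above both A4 libraries, and the fold was 4.61 (log2 2.21 ± 0.087 SE, adjusted p = 3.65e-14). NR2F1 had 1.38, 1.12, 5.59 and 5.35 CPM, again with both B212 libraries above both of A4, a fold of 4.38 (log2 2.13 ± 0.156, adjusted p = 6.59e-10). Its antisense neighbour NR2F1-AS1 had 37, 48, 247 and 163 counts, and THRB-AS1 had 1, 6, 33 and 27. The strand setting of the counting is not given in the sources used here, so reads of these genes and of their antisense partners cannot be told apart. NR3C2 had 9.18, 7.06, 18.7 and 16.8 CPM and was 2.20-fold higher in B212 (log2 1.14 ± 0.100, adjusted p = 1.09e-08).

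RARB, the retinoic acid receptor often silenced in tumours, had 0.628, 0.622, 1.55 and 1.69 CPM and was 2.59-fold higher in B212 (log2 1.37 ± 0.227, adjusted p = 4.48e-05). Its exons overlap those of TOP2B on the other strand, which had 34701 to 44768 counts a library, so the low RARB counts are uncertain. RORA, which opposes the REV-ERB receptors on clock genes, had 0.874, 1.21, 2.59 and 2.18 CPM and was 2.29-fold higher (log2 1.20 ± 0.204, adjusted p = 6.24e-05), beside 68 to 101 counts of its antisense gene RORA-AS1. ESR2 had 0.287, 0.268, 0.422 and 0.723 CPM and was 2.03-fold higher in B212 (log2 1.02 ± 0.349, adjusted p = 0.0196). The ESR2 call was lost with DESeq2 (adjusted p = 0.252), and without either E2 library its log2 fold change was 0.55.

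PGR was the receptor with the lowest p among those lower in B212. It had 51.6, 72.1, 5.62 and 15.6 CPM, with both A4 libraries above both of B212, and was 6.34-fold lower in B212 (log2 -2.67 ± 0.143, adjusted p = 4.52e-12). PPARG had 0.710, 0.549, 0.141 and 0.109 CPM (log2 -2.32 ± 0.386, adjusted p = 4.78e-05). RORB had 0.806, 1.00, 0.234 and 0.314 CPM (log2 -1.72 ± 0.306, adjusted p = 1.01e-04). Both are low receptors, and in both the A4 libraries lay above those of B212. NR2E1, or TLX, a neural stem cell receptor, had 62 counts in A4 and 1 in B212, a ratio of 63.4 with a 95% counting interval of 11.0 to 2542, and it passed the filter through A4 alone.

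The remaining 8 receptors that were higher in B212 moved by less than 2-fold. They were NR1D2 (log2 0.68 ± 0.070, adjusted p = 1.12e-07), NR4A1 (0.64), HNF4G (0.62), PPARD (0.36), VDR (0.34), NR6A1 (0.33), NR2F6 (0.28) and PPARA (0.25). The 5 lower ones short of 2-fold were ESRRA (-0.42), RXRA (-0.44 ± 0.083, adjusted p = 1.90e-04), NR4A2 (-0.55), NR1D1 (-0.58) and NR1I3 (-0.83). Adjusted p-values of those given without one ran from 2.06e-04 to 0.0425. With DESeq2 the calls of HNF4G, NR6A1, PPARA and NR1I3 were lost, at adjusted p = 0.0590, 0.130, 0.123 and 0.315. Without either E2 library PPARA was at 0.14, NR1I3 at -0.51 and NR1D1 at -0.89. Leaving out the DMSO library of A4 put NR1D1 at -0.27, and leaving out that of B212 put it at -0.30. NR1D1 overlaps THRA, NR1I3 overlaps TOMM40L and ESRRA overlaps TRMT112, each on the other strand.

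The 11 tested receptors that did not pass between the clones included the most abundant steroid receptors. ESR1 had 109.9, 97.0, 107 and 86.5 CPM (log2 -0.10 ± 0.070, adjusted p = 0.252), and NR3C1 had 72.9, 71.9, 69.7 and 64.9 CPM (log2 -0.11 ± 0.072, adjusted p = 0.231). The others were THRA, NR2C1, NR2C2, RARA, RARG, NR1H2, NR1H3, NR4A3 and NR5A2, with RARG at -0.03 and NR5A2 at -0.38. Beside these differences, the stromal list summed to 129.9 and 93.8 CPM in A4 and 42.9 and 35.1 CPM in B212. DCN, a defining stromal gene, had at most 1 count in a library. The endometrial epithelial list summed to 2782 and 2640 CPM in A4 and 3630 and 3371 CPM in B212. The part of either in the receptor differences was not tested. In bulk libraries, fewer cells with a transcript and less transcript in each cell cannot be told apart.

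**Figure D3:**
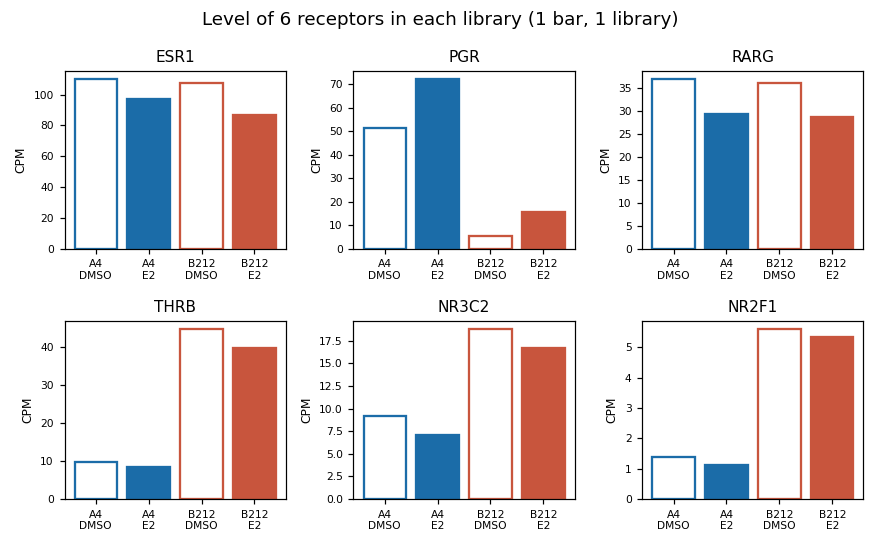
CPM of 6 receptors in the 4 libraries, 1 bar for each library, open for DMSO and filled for E2. PGR is higher with E2 in both clones, from 51.6 to 72.1 CPM in A4 and from 5.62 to 15.6 CPM in B212.

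No receptor passed the E2 comparison when the clones were treated as unmatched replicates, and 3 of 34 passed once each clone's E2 library was set against its own DMSO library. With that block, PGR rose and ESR1 and RARG fell. Without the block, 0 of 34 receptors and 0% of all tested genes passed with edgeR, the smallest adjusted p being 0.9999. There 1 receptor, RARG, and 150 genes (0.962%) had an unadjusted p under 0.05, and DESeq2 without a block called 0 receptors and 1 gene. With the block, 1492 genes or 9.56% of all passed, 6.13% higher and 3.44% lower, so that 3 of 34 receptors (8.82%) is a share near the background. With it, 8 receptors (23.5%) had an unadjusted p under 0.05, 1 of them higher, against 3953 of all tested genes (25.3%), with 13.9% higher. Regardless of direction, that share too is near the background. The higher part is below it, at 1 of 34 receptors against 13.9% of all genes. The other receptors with such a p were lower, so the lower part is above its own background. Neither part was tested.

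PGR, the textbook estrogen-induced receptor of the endometrium, had 51.6 CPM in DMSO and 72.1 in E2 in A4, and 5.62 in DMSO and 15.6 in E2 in B212. The groups overlap because the clones differ, but in each clone the E2 library was the higher. With the block its log2 fold change was 0.90 ± 0.138 SE (edgeR, adjusted p = 8.55e-04), and without it 0.62 ± 1.24. By clone it was 0.48 in A4 and 1.47 in B212, each from 1 library a treatment. The SE does not measure the distance between these clone values. The call was lost with DESeq2 (adjusted p = 0.212 at a log2 fold change of 0.97). As the ratio of RPKM, ESR1 exceeded PGR 4.53 and 2.86 times in A4 DMSO and E2, and 40.6 and 11.8 times in B212.

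ESR1 had 109.9 and 107 CPM in the DMSO libraries and 97.0 and 86.5 CPM in the E2 libraries. The groups do not overlap, and with the block its log2 fold change was -0.25 ± 0.070 (edgeR, adjusted p = 0.0330), at -0.18 in A4 and -0.31 in B212. That call was lost with DESeq2 (adjusted p = 0.0856), with DESeq2 size factors (0.0565) and once a trend on length and GC content was removed (0.104). RARG had 36.8 and 36.0 CPM in DMSO and 29.4 and 28.7 CPM in E2, again without overlap. Its log2 fold change was -0.33 ± 0.079 (edgeR with the block, adjusted p = 0.0146), with -0.33 in A4 and -0.32 in B212. RARG passed under every alternative with the block, the adjusted p running from 0.0044 to 0.0473.

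ESR2 and NR3C1 did not pass with the block. The ESR2 log2 fold change was 0.43 ± 0.346 (adjusted p = 0.465), from -0.09 in A4 and 0.74 in B212, and that of NR3C1 was -0.06 ± 0.072 (adjusted p = 0.640), in edgeR. The other 5 of the 8 receptors with an unadjusted p under 0.05, a share no higher than that of all genes, did not pass after adjustment: PPARD at -0.23 (adjusted p = 0.0634), NR3C2 at -0.26 (0.101), THRA at -0.19 (0.136), NR2F6 at -0.17 (0.147) and THRB at -0.19 (0.172), by edgeR with the block. PPARD passed when only library size was used for scaling (adjusted p = 0.0427). All 5 falls were smaller once the trend on length and GC content was removed, by edgeR with the block. PPARD was then at -0.12 (adjusted p = 0.294), NR3C2 at -0.22 (0.153) and THRA at -0.05 (0.743). NR2F6 was at -0.11 (0.257) and THRB at -0.15 (0.229).

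**Figure D4:**
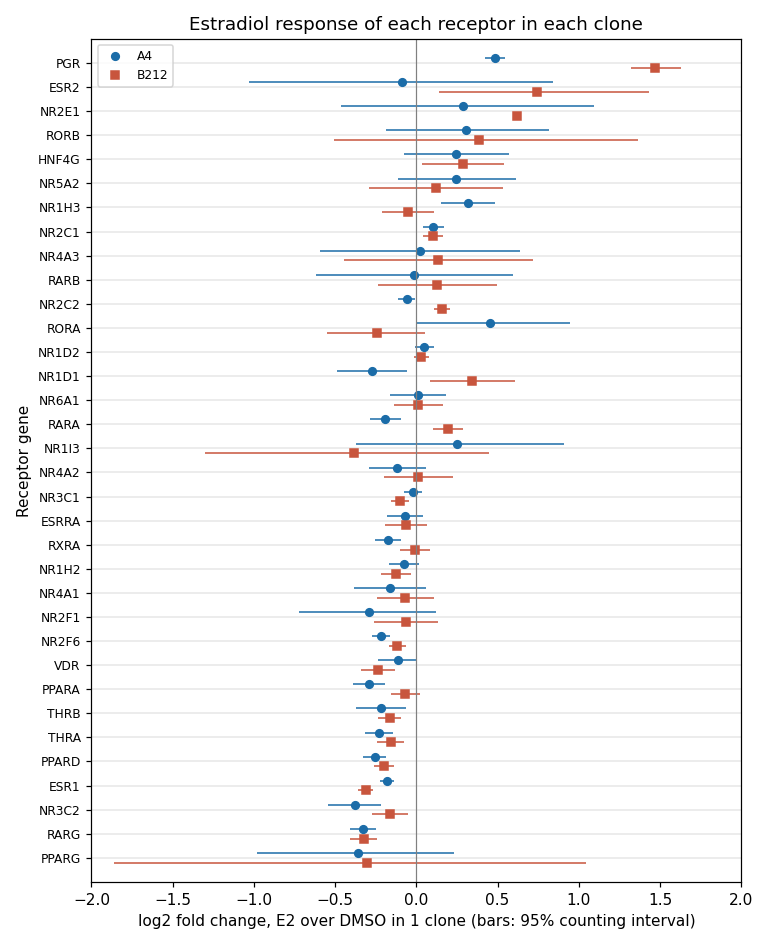
Log2 fold change of E2 against DMSO (x axis) in A4 (circles) and in B212 (squares) for the 34 tested receptors, with bars for 95% counting intervals and 1 library per clone and treatment. The direction is the same in both clones for 25 receptors, and NR2E1 has no B212 interval because its DMSO count there is 0.

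The E2 changes of most receptors were small. No receptor changed by as much as 0.5 on the log2 scale in A4, and 3 did so in B212, namely PGR, ESR2 and NR2E1, the last from 0 and 1 counts. The direction was the same in both clones for 25 of 34, with 9 higher and 16 lower, against 70.1% of all tested genes with 1 direction in both. The median log2 fold change with the block was -0.0369 in the receptors and -0.0081 in all genes, and the median size was 0.139 and 0.138. Receptors as a list thus moved about as much as other genes did.

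In 9 receptors the clones pointed opposite ways, and in 3 of these the 95% counting interval excluded 0 in both. NR1D1 was at -0.27 (-0.49 to -0.057) in A4 and 0.34 (0.082 to 0.61) in B212. RARA was at -0.19 (-0.29 to -0.096) and 0.20 (0.10 to 0.29). NR2C2 was at -0.060 (-0.11 to -0.0071) and 0.16 (0.11 to 0.21). The intervals cover counting error only, with 1 library per clone and treatment, so whether the clones respond differently was not tested. NR2C2 overlaps MRPS25 and FGD5-AS1 on the other strand.

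Genes that act with the receptors were followed in 8 lists. Passing genes are given for E2 against DMSO with the block, beside 9.56% of all genes, and for B212 against A4, beside 51.0%. None of the lists had a gene past the threshold without the block. The lists were chosen with earlier results of these data known, so their counts stand as descriptions.

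Of 14 retinoid handling genes 12 were tested, 1 rose with E2 and none fell, with a median of -0.055. DHRS3, a reductase that turns retinal back to retinol, had 48.6, 87.6, 87.8 and 149 CPM and rose in both clones (log2 0.80 ± 0.070, edgeR with the block, adjusted p = 1.07e-06). Between the clones 5 of the 12 were higher and 6 lower in B212. STRA6, the retinol uptake receptor, was lower in B212 (log2 -4.38 ± 0.29, adjusted p = 1.42e-10), and DHRS3 was higher (0.81, adjusted p = 9.31e-09), by edgeR.

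Of 9 thyroid hormone and glucocorticoid handling genes 4 were tested, and 1 rose and 2 fell. HSD11B2, which inactivates cortisol, had 2.17, 2.74, 5.68 and 10.0 CPM and rose (log2 0.62 ± 0.139, edgeR with the block, adjusted p = 0.0094). H6PD, which makes the cofactor of the cortisone-activating enzyme, fell (-0.39 ± 0.116, edgeR with the block, adjusted p = 0.0388), a call lost with limma-voom (adjusted p = 0.0737), with DESeq2 size factors (0.0729) and with the trend removed (0.209). DESeq2 gave no adjusted p for HSD11B2 and H6PD, nor for ABCA1 and FGF19 below. Between the clones, HSD11B2 (log2 1.64) and H6PD (0.71) were higher in B212. Of 12 targets of the glucocorticoid receptor 11 were tested and none passed with E2. CDKN1C (0.80) and TSC22D3 (-0.50) were among 2 higher and 2 lower in B212.

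Of the 11 LXR targets, all tested, 3 fell with E2 and none rose, with a median of -0.180. ABCA1, the cholesterol exporter, had 1.53, 1.35, 15.5 and 9.45 CPM (log2 -0.55 ± 0.137, edgeR with the block, adjusted p = 0.0175), and the main regulator of fatty acid synthesis, SREBF1, was at -0.26 ± 0.069 (adjusted p = 0.0239). SREBF1 was lost with DESeq2 (adjusted p = 0.0590) and with the trend removed (0.279). ABCA1 was the LXR target that differed most in size between the clones, at log2 3.08 ± 0.143 (adjusted p = 4.63e-13) higher in B212, while LPCAT3 was lower (-0.62). NR1H2 and NR1H3, the receptors themselves, did not pass in either comparison.

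Of 15 PPAR targets 8 were tested and none passed with E2, and between the clones 2 were higher and 3 lower in B212, among them PDK4 (1.00) and ACAA2 (-0.75). Of the 15 clock genes, all tested, ARNTL alone passed with E2. ARNTL, the BMAL1 gene that REV-ERB receptors repress, had 14.7, 21.0, 13.9 and 15.8 CPM (log2 0.35 ± 0.097, edgeR with the block, adjusted p = 0.0294). It was lost with DESeq2 (adjusted p = 0.129), with its size factors (0.0681) and with the trend removed (0.0621). BHLHE41 (log2 3.60 ± 0.198, adjusted p = 7.16e-12) and NPAS2 (1.51) were higher in B212. Of 7 vitamin D targets 2 were tested, none passed with E2, and CYP27B1 (0.68) was higher in B212, a call lost with DESeq2 (adjusted p = 0.118). Of 10 bile acid and xenobiotic targets 4 were tested and FGF19, a gut hormone gene induced by FXR, rose. FGF19 had 2.46, 3.91, 0.445 and 1.01 CPM (log2 0.83 ± 0.193, edgeR with the block, adjusted p = 0.0114) and was lower in B212 (-2.17). CYP8B1 was higher in B212 (2.71), a call lost with DESeq2 (adjusted p = 0.0528). CYP8B1 had 3, 3, 25 and 17 counts and passed the filter through B212 alone, so its difference between the clones was built in.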

How the data were processed

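RNA sequencing gave 4 libraries, 2 with DMSO and 2 with E2. The values are raw counts per gene symbol, as the authors deposited them, and all symbols named a gene. Per the submitters' processing notes, HISAT2, SAMtools, featureCounts and DESeq2 were used with the build hg19; their versions, the annotation and the strand setting are not given in the sources used here. Another 4 columns of values matched no sample and were not used.

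The members and lists were chosen with earlier results of these data known. Columns were placed by the treatment and the tag in their names. Genes were kept by filterByExpr in edgeR 4.0.16 with a minimum count of 10, which left 15599 of 26364. The E2 and DMSO groups were compared with edgeR's quasi-likelihood test, TMM scaling and no block, Benjamini-Hochberg adjustment and a threshold of 0.05, and B212 with A4 by the same test with treatment as a covariate. The clones come from 1 cell line and same-tag libraries deviated together from their group means (Pearson r = 0.871 across genes), so the fit with the tag as a replicate block is printed beside it where it changes a call. With 2 groups of 2, that correlation is a single independent value.

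CPM are counts relative to the TMM-scaled library size. RPKM used the longest coding transcript in GENCODE 29, found for 45 of 45 receptors and 93.6% of tested genes. Fold changes are on the log2 scale. A prior count of 2 entered the E2 changes within a clone and the trend on length and GC. Fitted fold changes used each tool's own default. The SE of an edgeR fold change is its size on the log2 scale divided by the square root of the F statistic. Counting intervals are exact binomial at 95%, and cover counting error only. Promoter windows and gene order came from RefSeq tables of GRCh38.p14. Receptors are named with test values where they passed a comparison, and ESR1, ESR2, PGR and NR3C1 in any case; receptors at an unadjusted p under 0.05 were added after their values were seen. From each list at most 4 genes past the threshold with E2 and the block and at most 2 between the clones are named, by smallest p. Some items that this rule took are not reported here.

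Alternatives used DESeq2 1.42.0, limma-voom (limma 3.58.1), other scalings, no filter, removal of a trend on length and GC (smoothed with mgcv 1.9.3), and leaving out each library. The scripts were tested on simulated data. R 4.3.3, Python 3.11.15 and matplotlib 3.10.9 were used.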

Additional observations from a re-analysis of the deposited data

Results flagged for a closer look

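In 9 tested receptors the E2 library lay above its DMSO library in one clone and below it in the other. Each combination has 1 library, so the difference was not tested, and over all tested genes 70.1% kept 1 direction in both clones. The values are the E2 log2 fold change in B212 minus that in A4. It was 0.83 for ESR2, the minor estrogen receptor, 0.61 for NR1D1, 0.39 for RARA, 0.22 for NR2C2, 0.14 for RARB and 0.13 for NR4A2, in which B212 had the higher value. It was -0.70 for RORA, -0.63 for NR1I3 and -0.37 for NR1H3, in which A4 had the higher value. In ESR2, RARB, NR4A2, RORA, NR1I3 and NR1H3 the 95% counting interval held 0 in at least 1 clone, and in NR1D1, RARA and NR2C2 the interval excluded 0 in both.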

How the results depend on the processing

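The replicate block moved the count for E2 against DMSO from 0 of 15599 genes to 1492 (956 higher, 536 lower) and of receptors from 0 to 3. With the replicate block, DESeq2 called 533 genes and 1 receptor, limma-voom 1138 and 3, DESeq2 size factors 717 and 2, library size only 1686 (911 higher, 775 lower) and 4, removal of the length and GC trend 703 and 2, and no filter 1770 and 3. DESeq2 with the block gave no adjusted p for 17 of the 34 tested receptors and 6654 genes, so these could not be called. DESeq2 with no block called 1 gene and no receptor. Between the clones, 7950 genes and 23 receptors passed, 1723 and 10 of them with a log2 change of at least 1; DESeq2 called 5538 and 18. Library size only gave 7937 genes (4761 higher, 3176 lower) and 24 receptors. NR1I3 was also lost with DESeq2 size factors and with library size only (adjusted p = 0.0559).

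Without the block, leaving out 1 library in turn left 0 genes past the threshold, with a lone sample assumed to vary like the other group. The E2 log2 fold change then ran from -0.40 to 1.01 for ESR2, -0.89 to 2.96 for PGR, -0.15 to 0.011 for NR3C1, -0.98 to 0.37 for NR3C2, -1.68 to 1.28 for THRB, -0.54 to 2.46 for FGF19, -2.65 to 1.81 for ABCA1, -0.52 to 1.54 for HSD11B2 and -0.89 to 0.021 for H6PD. The groups then hold the clones unequally. With the block, or between the clones, leaving out a library gives values with no test. Between the clones CYP27B1 was then at 0.44 without either E2 library and NR2E1 ran from -7.84 to -4.86. The cause of the other changes was not tested. Low receptors such as ESR2, RORB and NR2E1 are limited by their counts.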
